A study of Homo sapiens with 12 samples.

Results

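The heat shock chaperones and co-chaperones of the cytosol, nucleus and mitochondria were followed through knockdown of the RNA-binding proteins Musashi1 and Musashi2 in MIA PaCa-2 cells, a human pancreatic carcinoma line. The set was a list of 42 genes, put together by role. It took in the HSP70, HSP110 and HSP40 families, the co-chaperones of HSP70 and HSP90, HSP90 itself, the mitochondrial chaperones, 7 subunits of the cytosolic chaperonin TRiC, 3 small heat shock proteins, the transcription factors HSF1 and HSF2, and SERPINH1. All 42 were found by symbol among the 24528 genes of the deposited table, and 41 passed the low-count filter. HSPB8 did not, with 0 to 5 counts in any library, and is given no test. SERPINH1 (HSP47) is known as a collagen chaperone of the endoplasmic reticulum, so the set's compartments do not cover it.

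RNA was sequenced from 12 libraries, 3 in each of 4 groups. The groups were Msi1 knockdown, Msi2 knockdown, Msi1 and Msi2 double knockdown, and control shRNA. Cells were infected with lentivirus carrying an shRNA against Musashi1 (GFP-tagged virus), Musashi2 (Tomato Red-tagged virus), both, or a scrambled shRNA, and were sorted 72 hours later for the fluorescent tag, or for both tags where both viruses were used. Neither the tag nor the gate of the control cells is given in the sources, so the groups shared lentiviral infection and culture, while the number and colour of the viruses differed between them. All cells were of 1 established line, and each knockdown is described by its target alone, without the shRNA sequence. No source says whether the 3 libraries of a group were grown as separate cultures, and p-values therefore reflect the spread among these libraries alone, which may be technical.

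Chaperones of the HSP70 family bind unfolded stretches of proteins in a cycle of ATP hydrolysis, which J-domain proteins (HSP40) start and nucleotide exchange factors (HSP110, BAG proteins) end. HSP90 and its co-chaperones act on later folding steps of kinases, steroid receptors and other clients, and the ring-shaped TRiC chaperonin folds actin, tubulin and other proteins. Under heat or proteotoxic stress HSF1 binds heat shock elements, inverted repeats of the unit GAA, in the promoters of inducible members such as HSPA1A and HSPA1B, and many carcinoma lines hold these genes at high levels without heat.

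MSI1 was 1.62, 1.94 and 1.96 CPM after Msi1 knockdown, 7.0, 5.37 and 6.04 CPM after Msi2 knockdown, 2.01, 1.45 and 1.66 CPM after double knockdown and 4.93, 4.53 and 4.13 CPM in control (CPM, counts per 1e6 of the scaled library). MSI2 was 52.1, 56.5 and 53.4 CPM after Msi1 knockdown, 15.1, 17.3 and 12.6 CPM after Msi2 knockdown, 11.1, 12.2 and 12 CPM after double knockdown and 81.2, 80.7 and 86.3 CPM in control. Each targeted gene was thus lowest where the label says, with no overlap with control, and MSI2 was also lower after Msi1 knockdown (-0.61 ± 0.081 on the log2 scale, adjusted p = 6.82e-06), and MSI1 was higher after Msi2 knockdown (0.41 ± 0.13, adjusted p = 0.0244). Total estimated counts, in units of 1e6, were 26.8 to 38.9 after Msi1 knockdown, 39.7 to 53.0 after Msi2 knockdown, 39.9 to 56.1 after double knockdown and 10.9 to 35.0 in control. Keratins KRT8 and KRT18 and vimentin were abundant in every library. KRT8 (0.38 ± 0.079, adjusted p = 5.12e-04) and KRT18 (0.47 ± 0.084, adjusted p = 1.31e-04) were higher after double knockdown than in control. The blood and acinar markers PTPRC, CD3E, PRSS1, CPA1 and CELA3A were at or near 0, and of the fibroblast and endothelial lists COL3A1 (199 to 414 CPM) and CDH5 (5.94 to 33.6 CPM) were present. CDH5 was highest after Msi1 knockdown. COL3A1 was above control in all libraries of each knockdown, and its levels in the single knockdowns overlapped. The other fibroblast and endothelial markers COL1A1, PDGFRB, THY1, PECAM1 and VWF stayed under 2 CPM. The part of these cells or genes in any result was not tested.

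The libraries also differed along 1 shared axis that the groups did not define. Among 9778 genes other than the chaperones, the first principal component of the deviations from the group means held 54.1% of the variance within groups, and its weights went with transcript length (Spearman's rho of 0.411, taken over genes, and genes are no independent replicates), so that a high score means relatively more reads from long transcripts. The scores were 0.0893, 1.37 and 1.38 after Msi1 knockdown, 0.249, 1.07 and -0.345 after Msi2 knockdown, -1.54, -1.32 and -1.06 after double knockdown and -0.190, 0.678 and -0.394 in control. All 3 double-knockdown libraries lay below the other 9, so the double knockdown and a low score could be separated only by the spread within groups. For comparisons with control, values with this score as a covariate are given beside calls that it ends and beside called changes that it moves by over 1.5 times (for TRiC, as the median of the subunits). For comparisons between knockdowns, and for the double knockdown against the sum of the single ones, counts or class medians with the score are given. Values of single genes there are mostly from the fit of groups alone and may not hold with the score. The part of this axis in those results was not tested further.

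Knockdown of Musashi1 was accompanied by lower levels of 18 of the 41 chaperone transcripts tested and higher levels of 2, with 21 not past the threshold (edgeR, Benjamini-Hochberg adjusted p below 0.05 over all 15021 genes tested). Of all genes, 20.9% were lower and 18.5% were higher in this comparison. Knockdown of Musashi2 gave 8 lower and 4 higher, against a background of 13.6% lower and 16.7% higher. After double knockdown the balance was the other way, with 25 members higher and 5 lower, where 26.6% of all genes were higher and 25.3% lower. The median log2 change of the 41 was -0.18 after Msi1 knockdown, -0.00093 after Msi2 knockdown and 0.23 after double knockdown, while that of all genes lay between -0.015 and -0.0018. The 3 comparisons share the control libraries, so their values are set side by side and no overlap between them is read as a result.

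These counts moved with single libraries. With each library left out in turn, the Msi1 knockdown had 12 to 24 lower calls, with 12 without Msi1 replicate 2, Msi1 replicate 3 or control replicate 3 and 24 without Msi1 replicate 1. Its 2 higher calls became 1 without any 1 library other than Msi1 replicate 2, Msi2 replicate 2 or Msi2 replicate 3. The Msi2 knockdown had 4 higher calls, which became 1 without control replicate 1, 8 without Msi2 replicate 2, 5 without Msi1 replicate 1 and 2 without any other library. The double knockdown had 19 to 28 higher calls, and its 5 lower calls became 2 without control replicate 1. When the library trend score was added as a covariate, 7 members were higher and 13 lower after Msi1 knockdown, where 20.9% of all genes in that fit were higher and 21.9% lower. The same fit gave 13 higher and 12 lower after Msi2 knockdown (all genes 23% and 19.5%), and 15 higher and 7 lower after double knockdown (all genes 20.2% and 18.6%). Other settings (scaling, filters, the compared groups alone, the DESeq2 Wald test, thinning to the smallest library) ended 13 calls in all, with adjusted p of 0.052 to 0.584. These were HSPA8, HSPA4, DNAJB4, HSP90AA1 and HSPA9 after Msi1 knockdown, HSPA4, CCT8 and HSPB11 after Msi2 knockdown, and HSPA8, HSPA14, DNAJA1, STIP1 and HSF2 after double knockdown.

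**Figure D1:**
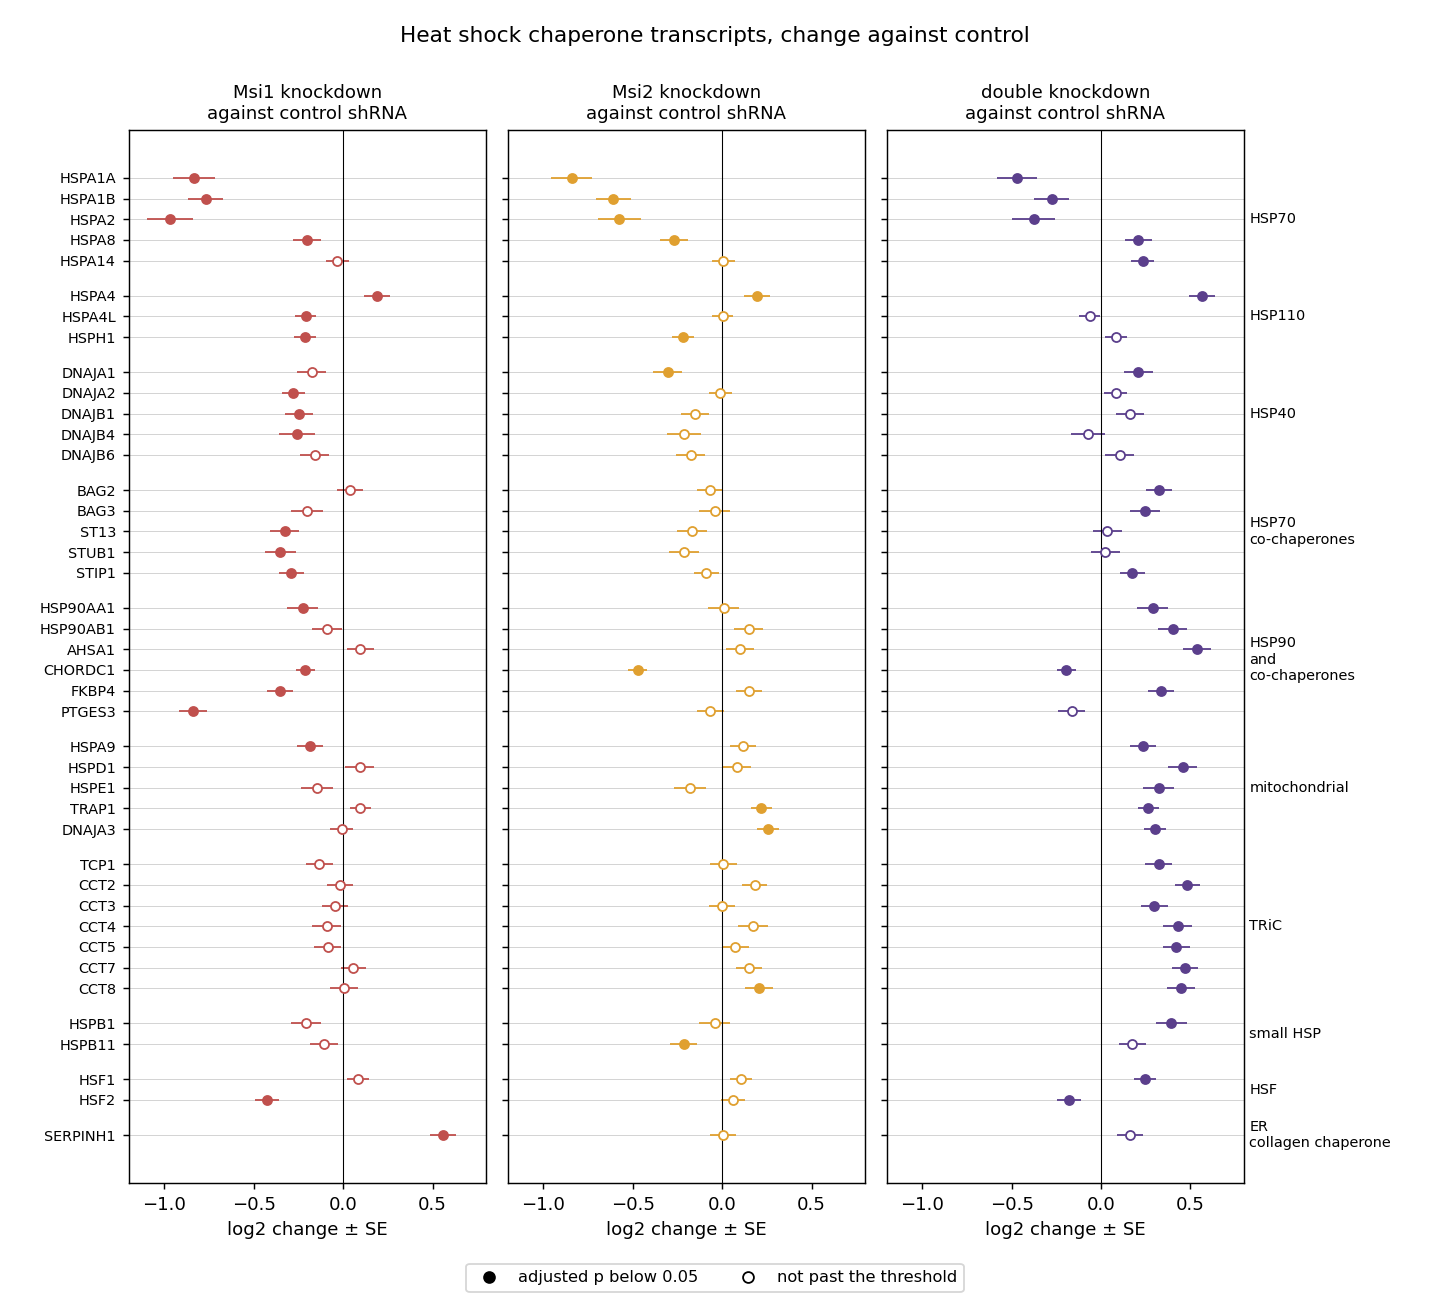
Log2 change (horizontal axis, bars ± SE) of the 41 tested chaperone transcripts against control shRNA for Msi1, Msi2 and double knockdown, by role class, from 3 libraries a group. Filled points have an adjusted p below 0.05. HSPA1A, HSPA1B, HSPA2 and CHORDC1 lie left of 0 in all 3 panels, and the 7 TRiC subunits lie right of 0 after double knockdown.

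The most abundant chaperone transcripts per length in control cells were HSP90AB1 (989 ± 41.7 CPM per kb of the longest annotated transcript), HSPA8 (955 ± 34.8 CPM per kb) and HSP90AA1 (825 ± 13.7 CPM per kb, mean ± SD, n = 3). HSP90AB1 and HSPA8 are the constitutive forms of their families, and their levels per length did not differ beyond their spread. HSPD1 followed with 518 ± 15.6 CPM per kb. At the other end stood HSPA2 with 1.13 ± 0.158 CPM per kb and HSPB8 with 0.0474 ± 0.0353 CPM per kb. The inducible HSPA1B and HSPA1A had 24.6 ± 4.23 and 17.8 ± 2.36 CPM per kb, ranks 29 and 34 of the 42. The 42 together took 1.60% to 1.77% of all counts in Msi1 knockdown libraries, 1.67% to 1.89% in Msi2 knockdown libraries, 2.08% to 2.14% in double-knockdown libraries and 1.76% to 1.87% in control libraries. The double-knockdown libraries were all above the other 9 in this share. In bulk RNA a change in the level of a transcript per cell and a change in the mix of cells cannot be told apart.

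The stress-inducible HSP70 genes were lower in every knockdown. HSPA1A encodes the main heat-inducible HSP70 of the cytosol, and HSPA1B encodes a near-identical protein from a neighbouring copy. HSPA1A had 24.7, 25.8 and 23.1 CPM after Msi1 knockdown, 28.8, 21.0 and 23.7 CPM after Msi2 knockdown and 35.5, 31.4 and 27.5 CPM after double knockdown, against 42.4, 39.6 and 50.9 CPM in control. All 9 knockdown libraries were below all 3 control libraries. HSPA1B had 41.2, 34.2 and 35.3 CPM after Msi1 knockdown, 40.3, 38.9 and 44.4 CPM after Msi2 knockdown and 53.4, 48.8 and 53.5 CPM after double knockdown, against 72.7, 62.2 and 51.4 CPM in control. Here the single knockdowns lay below control, and the double knockdown overlapped it through control replicate 3.

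HSPA1A fell by 0.83 ± 0.12 on the log2 scale after Msi1 knockdown (adjusted p = 2.57e-05), by 0.84 ± 0.11 after Msi2 knockdown (adjusted p = 3.70e-05) and by 0.47 ± 0.11 after double knockdown (adjusted p = 0.00231), where errors are standard errors. The changes of HSPA1B were -0.77 ± 0.10 (adjusted p = 6.15e-06) after Msi1 knockdown, -0.61 ± 0.10 (adjusted p = 1.08e-04) after Msi2 knockdown and -0.28 ± 0.10 (adjusted p = 0.0226) after double knockdown. The last call did not hold without control replicate 1 (adjusted p = 0.243) or double knockdown replicate 2 (0.0756), and the change was -0.14 without control replicate 1. Reads of this pair cannot be assigned to 1 copy with certainty, so either value alone is uncertain. Summed into 1 entry, the pair gave 65.8, 60.0 and 58.3 CPM after Msi1 knockdown, 69.1, 59.9 and 68.2 CPM after Msi2 knockdown, 88.9, 80.2 and 81.0 CPM after double knockdown and 115, 102 and 102 CPM in control. The sum was lower in all 9 knockdown libraries than in all 3 control libraries, with log2 changes of -0.80 ± 0.073 (adjusted p = 6.70e-08) after Msi1 knockdown, -0.70 ± 0.072 (adjusted p = 7.18e-07) after Msi2 knockdown and -0.35 ± 0.072 (adjusted p = 4.35e-04) after double knockdown. The double knockdown stood between the single knockdowns and control, and its sum was above that of the Msi1 knockdown by 0.44 ± 0.072 (adjusted p = 6.87e-05). With the trend score in the model 0 of the 5 HSP70 genes, HSPA1A and HSPA1B among them, were called higher after double than after Msi1 knockdown. The sum itself was not fitted with the trend, so the middle position holds for the fit of groups alone.

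The promoters of this pair are shown because both hold a heat shock element of 2 inverted units and the summed level of the pair was below control in each knockdown. Shared reads are split between the copies by likelihood, so their similar changes are not read as a result about 2 separate genes. The sequences are the 250 bases before the annotated start, 5′ to 3′ on the strand of the gene, from RefSeq on the build GRCh38.p14 (HSPA1A, chr6:31815293-31815542, forward strand, and HSPA1B, chr6:31827488-31827737, forward strand). Capitals mark each match to GAANNTTC or TTCNNGAA, which are their own reverse complements, so that both strands are covered.
HSPA1A: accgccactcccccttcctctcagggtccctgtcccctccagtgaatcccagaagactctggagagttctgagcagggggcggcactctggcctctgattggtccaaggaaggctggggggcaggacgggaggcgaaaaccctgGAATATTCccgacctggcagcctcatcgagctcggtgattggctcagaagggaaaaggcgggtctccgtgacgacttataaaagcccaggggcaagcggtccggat
HSPA1B: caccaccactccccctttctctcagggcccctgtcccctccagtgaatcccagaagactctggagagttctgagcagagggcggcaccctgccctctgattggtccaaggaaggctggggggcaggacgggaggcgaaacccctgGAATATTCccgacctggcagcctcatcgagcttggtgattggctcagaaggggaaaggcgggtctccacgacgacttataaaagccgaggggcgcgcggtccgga
Over 251 aligned columns these 2 stretches had 235 identical bases, an identity of 93.6%, and the match lay 106 bases before the start of HSPA1A and 105 bases before that of HSPA1B.

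HSPA2, an HSP70 known for its high level in testis, was low throughout. It had 3.13, 3.25 and 3.12 CPM after Msi1 knockdown, 4.62, 3.69 and 4.22 CPM after Msi2 knockdown and 4.70, 4.42 and 5.23 CPM after double knockdown, against 7.06, 5.71 and 5.48 CPM in control. The knockdown libraries were all below control, and those of the Msi1 knockdown were the lowest. The log2 changes were -0.97 ± 0.13 (adjusted p = 6.76e-06) after Msi1 knockdown, -0.58 ± 0.12 (adjusted p = 0.00114) after Msi2 knockdown and -0.38 ± 0.12 (adjusted p = 0.0125) after double knockdown. The last was lost without control replicate 1 (adjusted p = 0.163), where the change was -0.24. With the trend score in the model the 3 falls of HSPA1A, HSPA1B and HSPA2 after double knockdown were -0.66 ± 0.17 (adjusted p = 0.0129), then -0.45 ± 0.14 (adjusted p = 0.0272), then -0.49 ± 0.16 (adjusted p = 0.0137).

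HSPA8, the constitutive HSP70 of the cytosol, was lower in both single knockdowns and higher after double knockdown. Its levels were 2153, 1971 and 2004 CPM after Msi1 knockdown, 1979, 1807 and 2066 CPM after Msi2 knockdown and 2775, 2673 and 2706 CPM after double knockdown, against 2322, 2285 and 2448 CPM in control, with no overlap between control and any knockdown. It was lower after Msi1 knockdown (-0.20 ± 0.078, adjusted p = 0.0439) and after Msi2 knockdown (-0.27 ± 0.078, adjusted p = 0.0124) and higher after double knockdown (0.21 ± 0.078, adjusted p = 0.0305). The Msi1 call did not hold without any 1 library other than Msi1 replicate 1, Msi2 replicate 2 or Msi2 replicate 3 (adjusted p = 0.0545 to 0.172), and the Msi2 call without control replicate 3 (adjusted p = 0.0563). The call after double knockdown was lost without control replicate 1 (adjusted p = 0.104), control replicate 2 (0.139), double knockdown replicate 1 (0.0831), double knockdown replicate 2 (0.0815), double knockdown replicate 3 (0.0963) or Msi1 replicate 2 (0.0579). HSPA14, a ribosome-linked HSP70, was higher after double knockdown (0.23 ± 0.064, adjusted p = 0.00516) and had changes of -0.032 ± 0.065 and 0.0060 ± 0.064 in the Msi1 and Msi2 knockdowns. With the trend as a covariate HSPA8 was not past the threshold after Msi1 knockdown (-0.11 ± 0.046, adjusted p = 0.052) or after double knockdown (0.073 ± 0.054, adjusted p = 0.3), nor was HSPA14 after double knockdown (0.10 ± 0.066, adjusted p = 0.262).

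**Figure D2:**
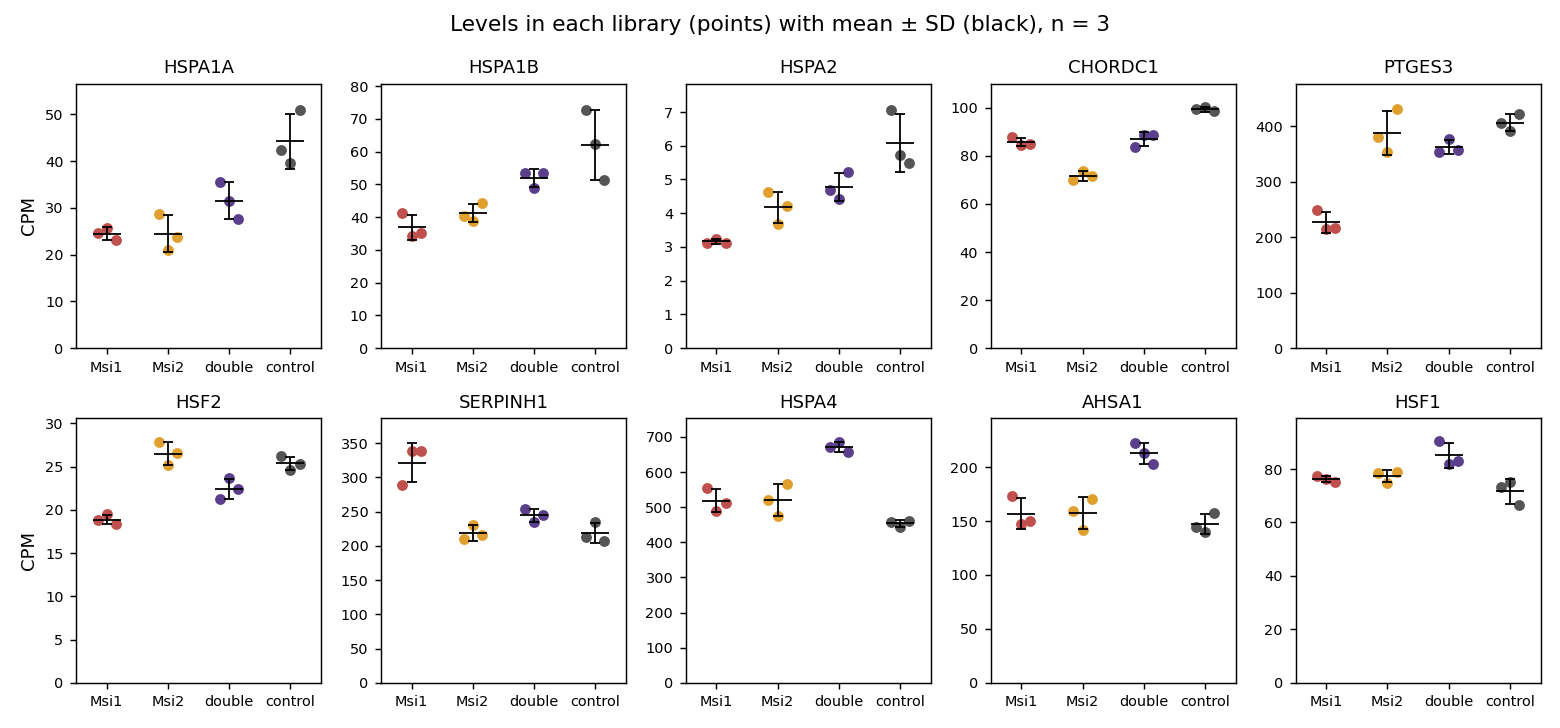
Level in CPM (vertical axis, from 0) of 10 chaperone transcripts in each library of the Msi1, Msi2 and double knockdown and of control shRNA, with the mean ± SD in black (n = 3). HSPA1A, HSPA2 and CHORDC1 are below control in all 9 knockdown libraries, PTGES3 is low and SERPINH1 high after Msi1 knockdown, and HSPA4 and AHSA1 are highest after double knockdown.

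Of the HSP110 proteins, the nucleotide exchange factors of HSP70, HSPA4 was the one that rose in each knockdown. HSPA4 had 553, 489.6 and 511 CPM after Msi1 knockdown, 521, 474 and 565 CPM after Msi2 knockdown and 671, 685 and 658 CPM after double knockdown, against 459, 443 and 461 CPM in control. All 9 knockdown libraries were above control and the double-knockdown libraries were the highest. The rise after double knockdown was 0.56 ± 0.073 (adjusted p = 3.64e-06) and remained with the trend as a covariate (0.40 ± 0.055, adjusted p = 5.40e-07). The rises after Msi1 knockdown (0.19 ± 0.073, adjusted p = 0.0447) and after Msi2 knockdown (0.19 ± 0.072, adjusted p = 0.0479) were near the threshold, and with the trend the Msi1 change was 0.30 ± 0.047 (adjusted p = 3.97e-06). The Msi1 call did not hold without any 1 library other than Msi1 replicate 2, Msi2 replicate 2 or Msi2 replicate 3 (adjusted p = 0.0568 to 0.134), and the Msi2 call without any 1 library other than Msi1 replicate 1 or Msi2 replicate 2 (adjusted p = 0.057 to 0.204). HSPH1 (HSP105) was lower after Msi1 knockdown (-0.21 ± 0.062, adjusted p = 0.0105) and after Msi2 knockdown (-0.22 ± 0.062, adjusted p = 0.0115), with 0.085 ± 0.062 after double knockdown. Its Msi1 call did not hold without control replicate 1 (adjusted p = 0.0575), control replicate 3 (0.0529), Msi1 replicate 2 (0.0751) or Msi1 replicate 3 (0.0681), and its Msi2 call without Msi2 replicate 2 (adjusted p = 0.0529). With the trend the Msi1 change of HSPH1 was -0.14 ± 0.046 (adjusted p = 0.0138). HSPA4L was lower after Msi1 knockdown (-0.21 ± 0.059, adjusted p = 0.0077), with 0.0022 ± 0.058 and -0.065 ± 0.058 in the Msi2 and double knockdowns.

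The J-domain proteins, which deliver clients to HSP70 and start its ATP hydrolysis, passed the test in 5 of 15 comparisons with control. Of all genes, 18.5% were higher and 20.9% lower after Msi1 knockdown, and 16.7% and 13.6% after Msi2 knockdown. After double knockdown these shares were 26.6% and 25.3%, so the count of 5 is not read as a result about the class. After Msi1 knockdown 3 of the 5 fell, DNAJA2 by 0.28 ± 0.065 (adjusted p = 0.00207), DNAJB1 by 0.25 ± 0.078 (adjusted p = 0.017) and DNAJB4 by 0.26 ± 0.10 (adjusted p = 0.0436). DNAJB1 is a heat-inducible HSP40 and a common readout of HSF1. Its call did not hold without control replicate 3 (adjusted p = 0.106), Msi1 replicate 2 (0.0834) or Msi1 replicate 3 (0.147), and that of DNAJB4 without control replicate 1 (adjusted p = 0.328), control replicate 3 (0.0857), double knockdown replicate 2 (0.0565), Msi1 replicate 2 (0.0744), Msi1 replicate 3 (0.171) or Msi2 replicate 1 (0.074). Neither held with the trend as a covariate (-0.10 ± 0.051, adjusted p = 0.11 for DNAJB1 and -0.20 ± 0.10, adjusted p = 0.11 for DNAJB4), and the DNAJB4 change was -0.10 (adjusted p = 0.584) after thinning to the smallest library. DNAJA2 stayed lower with the trend (-0.18 ± 0.049, adjusted p = 0.00292). DNAJA1 was lower after Msi2 knockdown (-0.30 ± 0.082, adjusted p = 0.0081) and higher after double knockdown (0.21 ± 0.082, adjusted p = 0.0389). The second call did not hold without any 1 library other than Msi1 replicate 1, Msi1 replicate 3, Msi2 replicate 2, Msi2 replicate 3 or control replicate 3 (adjusted p = 0.0588 to 0.27), with log2 changes of 0.12 to 0.23, and with the trend as a covariate its sign turned (-0.050 ± 0.055, adjusted p = 0.512). DNAJB6, which suppresses aggregation, was past the threshold in no comparison with control, with -0.16 ± 0.081, -0.17 ± 0.081 and 0.10 ± 0.081 in the Msi1, Msi2 and double knockdowns. With the trend it was lower after Msi2 knockdown (-0.13 ± 0.049, adjusted p = 0.0263).

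Among the HSP70 co-chaperones, ST13 (HIP), STUB1 (the ubiquitin ligase CHIP) and STIP1 (HOP, which bridges HSP70 and HSP90) fell after Msi1 knockdown, by 0.33 ± 0.082 (adjusted p = 0.00342), 0.35 ± 0.084 (adjusted p = 0.00253) and 0.29 ± 0.070 (adjusted p = 0.00253). With the trend as a covariate these falls were smaller, at -0.16 ± 0.046 (adjusted p = 0.00607) for ST13, -0.22 ± 0.069 (adjusted p = 0.0107) for STUB1 and -0.18 ± 0.047 (adjusted p = 0.00259) for STIP1. After Msi2 knockdown the changes of the 5 were -0.21 to -0.041, with adjusted p from 0.0576, and with the replicate number as a block STUB1 was past the threshold (-0.21 ± 0.078, adjusted p = 0.043). BAG2 and BAG3, nucleotide exchange factors with roles in protein turnover, rose after double knockdown by 0.32 ± 0.071 (adjusted p = 9.04e-04) for BAG2 and 0.24 ± 0.086 (adjusted p = 0.0224) for BAG3, as did STIP1 (0.17 ± 0.070, adjusted p = 0.0447). The BAG3 call did not hold without control replicate 1 (adjusted p = 0.0612), control replicate 2 (0.139), double knockdown replicate 1 (0.111) or double knockdown replicate 2 (0.054), and its sign turned with the trend as a covariate (-0.026 ± 0.072, adjusted p = 0.81). The STIP1 call did not hold without any 1 library other than Msi1 replicate 1, Msi2 replicate 2 or Msi2 replicate 3 (adjusted p = 0.0545 to 0.271), with log2 changes of 0.11 to 0.19. BAG2 and STIP1 were not past the threshold with the trend either (0.19 ± 0.077, adjusted p = 0.0533 for BAG2 and 0.0018 ± 0.054, adjusted p = 0.985 for STIP1), while ST13 then was past it as lower (-0.21 ± 0.054, adjusted p = 0.00206).

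PTGES3, the p23 co-chaperone that stabilises the closed form of HSP90, had the smallest adjusted p of the 41 after Msi1 knockdown. Its levels were 249, 214 and 217 CPM after Msi1 knockdown, 382, 353 and 430.5 CPM after Msi2 knockdown and 353, 376 and 358 CPM after double knockdown, against 406, 391 and 422 CPM in control. The Msi1 knockdown libraries lay below the other 9. PTGES3 fell by 0.84 ± 0.078 after Msi1 knockdown (adjusted p = 7.31e-08), and its changes were -0.065 ± 0.077 (adjusted p = 0.575) after Msi2 knockdown and -0.16 ± 0.077 (adjusted p = 0.081) after double knockdown. The double knockdown, which carries the Msi1 shRNA too, had a level 0.68 ± 0.077 above the Msi1 knockdown (adjusted p = 2.99e-06). PTGES3, with the trend as a covariate, was past the threshold after double knockdown too (-0.37 ± 0.057, adjusted p = 4.01e-06).

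CHORDC1, an HSP90 co-chaperone that is itself a target of HSF1, was below control in each knockdown. Its levels were 87.9, 84.7 and 85.1 CPM after Msi1 knockdown, 69.8, 73.9 and 71.4 CPM after Msi2 knockdown and 83.6, 88.5 and 88.7 CPM after double knockdown, against 99.4, 100.4 and 98.5 CPM in control. The Msi2 knockdown was lowest, and no knockdown library reached control. The changes were -0.21 ± 0.055 (adjusted p = 0.00432) after Msi1 knockdown, -0.47 ± 0.054 (adjusted p = 2.81e-06) after Msi2 knockdown and -0.19 ± 0.054 (adjusted p = 0.00555) after double knockdown. All 3 calls were kept in each removal of 1 library.

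Both HSP90 genes and the co-chaperones AHSA1 and FKBP4 were higher after double knockdown. AHSA1, which activates the ATPase of HSP90, had 173, 147 and 150.0 CPM after Msi1 knockdown, 159.7, 141 and 170.4 CPM after Msi2 knockdown and 223, 213 and 203 CPM after double knockdown, against 144, 140.0 and 157 CPM in control. The double-knockdown libraries were above all others, a rise of 0.54 ± 0.078 (adjusted p = 1.35e-05), and 0.30 ± 0.057 (adjusted p = 7.0e-05), with the trend as a covariate. HSP90AB1, the constitutive form, rose after double knockdown (0.40 ± 0.081, adjusted p = 4.34e-04) and had -0.091 ± 0.081 and 0.15 ± 0.081 in the Msi1 and Msi2 knockdowns. HSP90AA1, the inducible form, was lower after Msi1 knockdown (-0.23 ± 0.087, adjusted p = 0.0451) and higher after double knockdown (0.29 ± 0.087, adjusted p = 0.00943). Its Msi1 call did not hold without any 1 library other than Msi1 replicate 1, Msi2 replicate 2 or Msi2 replicate 3 (adjusted p = 0.0596 to 0.206) and with the trend (-0.11 ± 0.050, adjusted p = 0.0778), and its call after double knockdown without double knockdown replicate 2 (adjusted p = 0.0578) and with the trend as a covariate (0.11 ± 0.059, adjusted p = 0.147). HSP90AB1 stayed higher with the trend (0.24 ± 0.053, adjusted p = 4.13e-04). FKBP4 (FKBP52), a partner of steroid receptors on HSP90, was lower after Msi1 knockdown (-0.35 ± 0.073, adjusted p = 7.42e-04) and higher after double knockdown (0.34 ± 0.073, adjusted p = 7.69e-04), with 0.15 ± 0.073 after Msi2 knockdown. With the trend the FKBP4 changes were -0.22 ± 0.047 (adjusted p = 3.31e-04) after Msi1 knockdown, 0.19 ± 0.040 (adjusted p = 1.76e-04) after Msi2 knockdown and 0.14 ± 0.055 (adjusted p = 0.0384) after double knockdown.

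In the mitochondria, all 5 chaperone transcripts were higher after double knockdown. HSPD1 (HSP60) had 1472, 1292 and 1302 CPM after Msi1 knockdown, 1329, 1231 and 1481 CPM after Msi2 knockdown and 1766, 1762 and 1713 CPM after double knockdown, against 1246, 1254 and 1316 CPM in control. The double-knockdown libraries were the highest, a rise of 0.46 ± 0.081 (adjusted p = 1.09e-04). HSPE1 (HSP10), the lid of the HSP60 chamber and a head-to-head neighbour of HSPD1 on chromosome 2, rose by 0.32 ± 0.088 (adjusted p = 0.00474). HSPA9 (mortalin, the mitochondrial HSP70) rose by 0.23 ± 0.072 (adjusted p = 0.0113), TRAP1 (the mitochondrial HSP90) by 0.26 ± 0.060 (adjusted p = 0.00112) and DNAJA3 (a mitochondrial J-domain protein) by 0.30 ± 0.061 (adjusted p = 4.29e-04). The HSPA9 call did not hold without control replicate 2 (adjusted p = 0.083) or double knockdown replicate 2 (0.0555). After Msi1 knockdown only HSPA9 passed, and it was lower (-0.19 ± 0.072, adjusted p = 0.0482), a call lost without any 1 library other than Msi1 replicate 1, Msi2 replicate 2, Msi2 replicate 3 or control replicate 2 (adjusted p = 0.0594 to 0.204) and with the trend (-0.077 ± 0.045, adjusted p = 0.169). After Msi2 knockdown TRAP1 (0.22 ± 0.060, adjusted p = 0.00869) and DNAJA3 (0.26 ± 0.061, adjusted p = 0.00332) were higher, and the TRAP1 call did not hold without control replicate 1 (adjusted p = 0.0906). With the trend as a covariate 3 of the 5 were higher after double knockdown, HSPD1 among them (0.28 ± 0.056, adjusted p = 1.42e-04), while HSPA9 (0.073 ± 0.052, adjusted p = 0.278) and HSPE1 (0.030 ± 0.057, adjusted p = 0.719) were not past the threshold. The same fit called 4 of the 5 higher and 1 lower after Msi2 knockdown, and 2 higher and 0 lower after Msi1 knockdown. Of all genes in that fit, 20.2% were higher after double knockdown. The shares higher and lower were 23% and 19.5% after Msi2 knockdown, and 20.9% and 21.9% after Msi1 knockdown.

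All 7 TRiC subunits of the set, parts of the double ring of the chaperonin, were higher after double knockdown than in control, by 0.30 (CCT3) to 0.48 (CCT2) on the log2 scale, with adjusted p of 1.62e-05 for CCT2 to 0.00262 for CCT3. Their summed level was 3397, 2968 and 2999.7 CPM after Msi1 knockdown, 3474, 3184 and 3776 CPM after Msi2 knockdown, 4382, 4276 and 4131 CPM after double knockdown and 3270.3, 3095 and 3337 CPM in control. The double-knockdown libraries were above the other 9 in the sum and in each of the 7 subunits, a position held by 14.5% of all genes. After Msi1 knockdown the changes of the 7 were -0.13 to 0.057, with adjusted p from 0.168. After Msi2 knockdown CCT8 alone passed (0.21 ± 0.078, adjusted p = 0.0493), and that call did not hold without any 1 library other than Msi1 replicate 1 or Msi2 replicate 2 (adjusted p = 0.0602 to 0.227), with changes down to 0.13. With the replicate number as a block CCT2 passed there too (0.18 ± 0.064, adjusted p = 0.0363).

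The TRiC sum also went with the library trend. Within each group the library with the lowest trend score had the highest TRiC sum, and the double knockdown held both the 3 lowest scores and the 3 highest sums. With the trend as a covariate 6 of the 7 subunits stayed higher after double knockdown, with a median of 0.22, against 0.43 without it, and CCT3 was not past the threshold (0.13 ± 0.057, adjusted p = 0.0705). After Msi2 knockdown 5 of the 7 then passed as higher, with a median of 0.19, and after Msi1 knockdown 2 of the 7. Of all genes in that fit, 20.2% were higher after double, 23% after Msi2 and 20.9% after Msi1 knockdown. The same fit called 0 of the 7 higher after double than after Msi1 knockdown (median 0.14, 2.69% of all genes). Against the Msi2 knockdown it also called 0 of the 7 higher (median 0.087, 8.26% of all genes). The summed pair HSPA1A and HSPA1B differed from TRiC in the place of control, which was highest at middle scores. The knockdown groups kept the order seen in TRiC, with means of 83.4 CPM after double, 65.7 after Msi2 and 61.4 after Msi1 knockdown. The libraries of the single knockdowns overlapped in this sum.

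**Figure D3:**
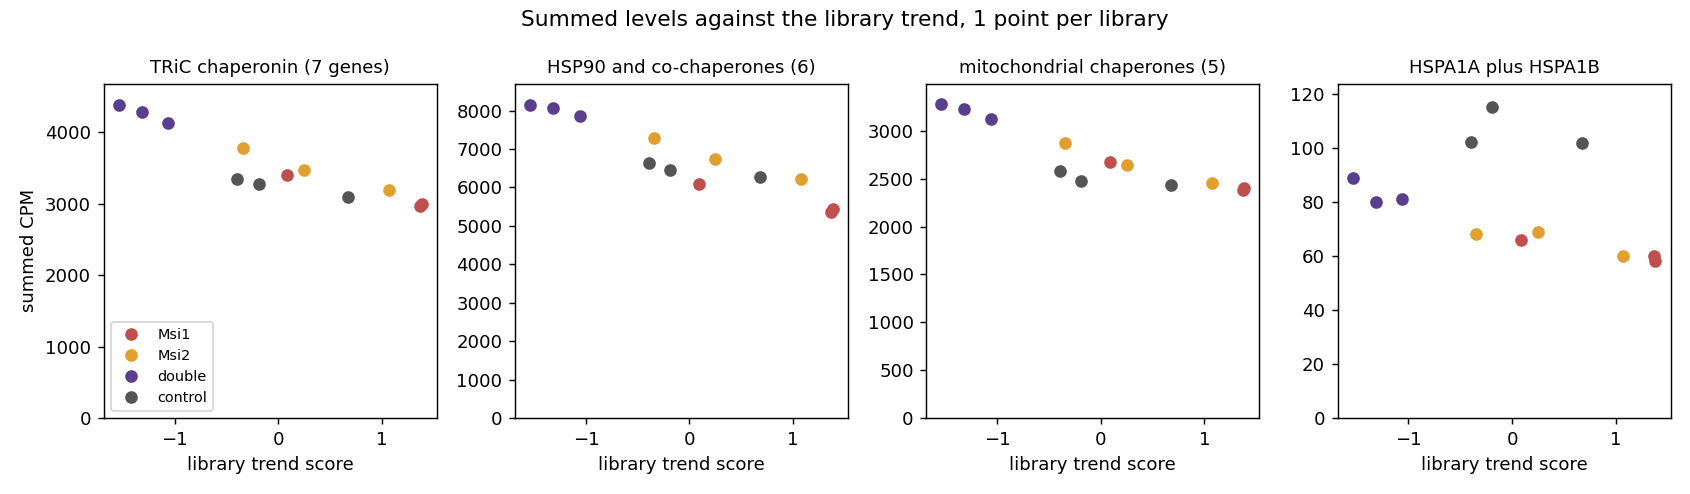
Summed CPM (vertical axes, from 0) of 3 chaperone classes and of HSPA1A plus HSPA1B against the library trend score (horizontal axes), 1 point for each of 12 libraries. The double-knockdown points have the lowest scores and the highest sums in the first 3 panels, and in the last panel the 3 control points, at 102 to 115 CPM, are above all knockdown points.

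The small heat shock proteins and the heat shock factors gave 4 tested genes. HSPB1 (HSP27), which holds unfolded proteins without using ATP, was higher after double knockdown (0.39 ± 0.085, adjusted p = 7.79e-04) with -0.21 ± 0.086 and -0.042 ± 0.085 in the Msi1 and Msi2 knockdowns. With the trend as a covariate it was not past the threshold after double knockdown (0.13 ± 0.061, adjusted p = 0.0846). HSPB11, also known as a subunit of intraflagellar transport, was lower after Msi2 knockdown (-0.22 ± 0.077, adjusted p = 0.0396), where its libraries overlapped control. That call did not hold without control replicate 1 (adjusted p = 0.127), control replicate 3 (0.125), Msi1 replicate 3 (0.0501), Msi2 replicate 1 (0.167) or Msi2 replicate 2 (0.115). HSF1, the main activator of the heat shock response, had 77.4, 76.2 and 75.0 CPM after Msi1 knockdown, 78.4, 74.8 and 78.9 CPM after Msi2 knockdown and 90.4, 81.8 and 83.2 CPM after double knockdown, against 73.4, 75.0 and 66.4 CPM in control. Its transcript was higher after double knockdown (0.24 ± 0.061, adjusted p = 0.00257), and the single knockdowns overlapped control, with 0.084 ± 0.062 and 0.11 ± 0.061 in the Msi1 and Msi2 knockdowns. HSF1 is known to be controlled mainly at the protein level, which was not measured here. HSF2, a related factor that can pair with HSF1, had 18.8, 19.5 and 18.4 CPM after Msi1 knockdown, 27.8, 25.2 and 26.5 CPM after Msi2 knockdown and 21.3, 23.6 and 22.4 CPM after double knockdown, against 26.2, 24.7 and 25.3 CPM in control. It was lower after Msi1 knockdown (-0.43 ± 0.069, adjusted p = 6.78e-05) and after double knockdown (-0.18 ± 0.068, adjusted p = 0.0332), and after Msi2 knockdown it overlapped control (0.061 ± 0.067). The call after double knockdown was lost without control replicate 1 (adjusted p = 0.143), double knockdown replicate 1 (0.143), double knockdown replicate 3 (0.0559) or Msi1 replicate 3 (0.0507).

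SERPINH1 was, with HSPA4, 1 of the 2 members that rose after Msi1 knockdown. It had 289, 338 and 338 CPM after Msi1 knockdown, 209.5, 231 and 216 CPM after Msi2 knockdown and 254, 235 and 246 CPM after double knockdown, against 213, 235 and 207 CPM in control. The Msi1 libraries were above all others, a rise of 0.56 ± 0.073 (adjusted p = 5.68e-06). Its changes were 0.0042 ± 0.073 (adjusted p = 0.976) after Msi2 knockdown and 0.16 ± 0.073 (adjusted p = 0.0657) after double knockdown, where it was past the threshold with the trend as a covariate (0.34 ± 0.061, adjusted p = 3.94e-05). The collagen gene COL3A1, listed among the fibroblast markers, was also higher after Msi1 knockdown (0.77 ± 0.10, adjusted p = 3.38e-06), and COL3A1 was higher after Msi2 knockdown too (0.70 ± 0.10, adjusted p = 1.76e-05). After double knockdown COL3A1 had 299, 262 and 316 CPM, against 225, 253 and 199 CPM in control. The other fibroblast markers COL1A1, PDGFRB and THY1 were scarce, with means of 1.52, 0.17 and 0.12 CPM after Msi1 knockdown. Their means in control were 1.46, 0.31 and 0.34 CPM, so the rise of COL3A1 was not one of the whole list. A link between COL3A1 and SERPINH1 was not tested.

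Most of the chaperones were higher after double knockdown than in either single one. The 2 comparisons share the double-knockdown libraries. Against the Msi1 knockdown, 38 of the 41 were higher and 1 (SERPINH1) was lower, where 29.9% of all genes were higher and 26.2% lower. Against the Msi2 knockdown, 30 were higher and 1 (HSF2) was lower, with a background of 22.7% and 22.5%. The median log2 difference was 0.39 against the Msi1 knockdown and 0.28 against the Msi2 knockdown. The first count ran from 33 to 38 over removals of 1 library and the second from 19 (without Msi2 replicate 2) to 31. The fit with the trend called 2 members higher and 0 lower than after Msi1 knockdown, where 2.69% of all genes were higher and 2.13% lower. Against the Msi2 knockdown it called 6 higher and 2 lower, with 8.26% and 9.71% of all genes. All 3 double-knockdown libraries were above the other 9 for 25 of the 41, against 14.5% of all genes, and below the other 9 for 0 of the 41, against 9.99%. The 25 were 7 of 7 TRiC subunits, 4 of 6 of the HSP90 class, 3 of 5 HSP70 co-chaperones, 2 of 5 each of the HSP70, HSP40 and mitochondrial classes, 2 of 3 HSP110 genes, both tested small heat shock proteins and HSF1.

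After Msi2 knockdown 14 members were higher and 2 lower than after Msi1 knockdown, where 22.3% of all genes were higher and 18.9% lower. The higher ones were led by PTGES3 (0.78 ± 0.078, adjusted p = 2.04e-07), FKBP4 (0.50 ± 0.073, adjusted p = 1.74e-05) and HSF2 (0.49 ± 0.066, adjusted p = 8.66e-06). The 2 lower ones were SERPINH1 (-0.55 ± 0.072, adjusted p = 5.42e-06) and CHORDC1 (-0.26 ± 0.054, adjusted p = 6.97e-04). HSPA1A did not separate the 2 single knockdowns, with a difference of -0.0068 ± 0.11 (adjusted p = 0.969). The count of higher calls was 7 without Msi1 replicate 3 or Msi2 replicate 1, 8 without Msi1 replicate 2 or Msi2 replicate 3, 9 without control replicate 1, and 21 without Msi1 replicate 1. In the fit with the trend 14 were higher and 8 lower, where 25.5% of all genes were higher and 22.5% lower.

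The double knockdown was also set against the sum of the single knockdowns. This departure is the log2 change of the double knockdown minus both single changes, so a positive value means a level above that sum. It was positive and past the threshold for 32 of the 41 and negative for 1, SERPINH1 (-0.40 ± 0.10, adjusted p = 0.00533), where 21.3% of all genes were positive and 19.1% negative. The largest were those of HSPA1A (1.20 ± 0.16, adjusted p = 5.95e-05), HSPA2 (1.17 ± 0.17, adjusted p = 7.88e-05) and HSPA1B (1.10 ± 0.14, adjusted p = 1.85e-05), each of which fell in all 3 knockdowns. The departure was not past the threshold for 8 members, HSPA4, HSPA4L, HSPD1, TRAP1, DNAJA3, CCT8, HSF1 and HSF2. A low level in 1 or both single knockdowns, a high level after double knockdown and a high level in control enter this value alike. In the fit with the trend 5 of the 41 were positive and 0 negative, where 1.22% of all genes were positive and 2.74% negative. The TRiC median was then -0.038 and that of the HSP70 class 0.83, with 2 of the 5 HSP70 genes past the threshold.

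**Figure D4:**
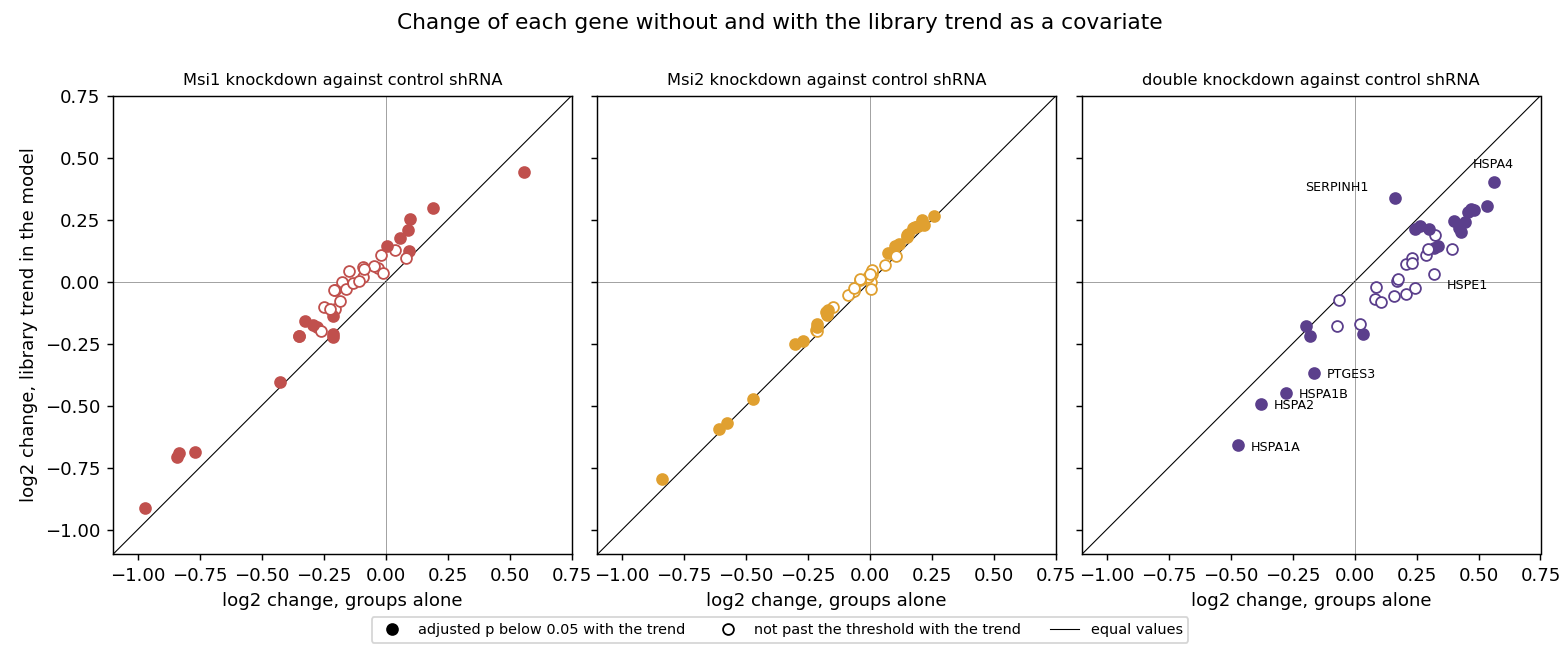
Log2 change of the 41 tested chaperone transcripts against control shRNA in the fit of groups alone (horizontal axis) and with the library trend score as a covariate (vertical axis), in the Msi1, Msi2 and double knockdown. After double knockdown most points lie below the line of equal values, SERPINH1 lies above it, and HSPA1A, HSPA1B, HSPA2 and PTGES3 move further below 0.

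A second list of 67 chaperones and stress factors outside the set gave a comparison for its size. Of these, 66 were in the table and 61 were tested. After Msi1 knockdown 7 were higher and 16 lower, after Msi2 knockdown 7 and 10, and after double knockdown 20 and 9. As shares of the 61 tested, higher and lower calls were 11.5% and 26.2% after Msi1 knockdown, against 18.5% and 20.9% of all genes. They were 11.5% and 16.4% after Msi2 knockdown, against 16.7% and 13.6%, and 32.8% and 14.8% after double knockdown, against 26.6% and 25.3%. Their median log2 change after double knockdown was 0.10, against 0.23 for the 41, and no test of that difference was made. The smallest p after Msi1 knockdown were those of the J-domain genes DNAJC14 (-0.57 ± 0.065, adjusted p = 1.21e-06) and DNAJC13 (-0.52 ± 0.063, adjusted p = 1.97e-06) and of the prefoldin-like URI1 (-0.57 ± 0.070, adjusted p = 2.94e-06). After Msi2 knockdown they were those of HSBP1 (-0.69 ± 0.089, adjusted p = 1.06e-05), whose protein binds HSF1, and of the J-domain genes DNAJB2 (-0.54 ± 0.070, adjusted p = 1.07e-05) and DNAJB12 (0.39 ± 0.065, adjusted p = 1.25e-04). After double knockdown they were those of PFDN2 (1.00 ± 0.091, adjusted p = 5.38e-08), a subunit of the prefoldin that passes actin and tubulin to TRiC, DNAJC13 (-0.68 ± 0.063, adjusted p = 6.64e-08) and DNAJB2 (-0.68 ± 0.071, adjusted p = 2.82e-07). PFDN2 averaged 87.8 ± 9.13 CPM after double knockdown and 43.9 ± 0.595 CPM in control (SD, n = 3 each).

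The promoters of the set were also searched for heat shock elements. RefSeq on GRCh38.p14 gave promoter windows, 250 bases before to 50 after a start, for 36 of the 42 genes. A match to GAANNTTC or TTCNNGAA was in a window of 21 of the 36 genes (58.3%), against 16.2% of 27305 genes with a window. Matches of 3 adjacent alternating units, each of which holds 2 overlapping shorter matches, were found for 8 of the 36 (22.2%), against 0.608% of all. The 8 were HSPA8, HSP90AA1, HSP90AB1, DNAJA1, DNAJB6, CHORDC1, HSPD1 and SERPINH1. In the double knockdown, HSPA8, HSP90AA1, HSP90AB1, DNAJA1 and HSPD1 were called higher, CHORDC1 lower, and DNAJB6 and SERPINH1 neither, so the 8 did not share 1 direction. Of these calls, those of HSPA8, HSP90AA1 and DNAJA1 did not hold with the trend as a covariate. The HSPA8 call was also lost in 6 of 12 removals of 1 library. CHORDC1 and HSPA8 were both called lower in both single knockdowns. Their promoters are printed because both hold several matches and the genes were called in opposite directions after double knockdown, where the HSPA8 call is uncertain. They are the 250 bases before the start, 5′ to 3′ on the strand of the gene, from the same build, with matches in capitals (CHORDC1, chr11:90223050-90223299, reverse strand, and HSPA8, chr11:123062137-123062386, reverse strand).
CHORDC1: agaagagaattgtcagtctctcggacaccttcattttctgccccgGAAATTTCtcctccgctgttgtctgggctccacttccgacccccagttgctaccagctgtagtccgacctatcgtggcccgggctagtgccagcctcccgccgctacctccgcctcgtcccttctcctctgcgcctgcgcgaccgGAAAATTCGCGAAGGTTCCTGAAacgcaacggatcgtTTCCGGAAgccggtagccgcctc
HSPA8: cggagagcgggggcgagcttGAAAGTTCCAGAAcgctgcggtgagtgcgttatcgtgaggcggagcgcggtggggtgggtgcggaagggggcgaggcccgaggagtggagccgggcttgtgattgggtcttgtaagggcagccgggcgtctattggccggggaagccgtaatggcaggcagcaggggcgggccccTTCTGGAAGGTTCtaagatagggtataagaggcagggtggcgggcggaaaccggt
Counting those that overlap, the windows held 6 matches for CHORDC1, the first 205 bases before the start, and 4 for HSPA8, the first 230 bases before it. HSPA14, HSPB11, ST13, STUB1, FKBP4 and HSF1 are named only. No match was in the windows of HSPA2, HSPA4, HSPH1, DNAJA2, BAG3, AHSA1, PTGES3, HSPE1, TRAP1, DNAJA3, CCT3, CCT5, CCT7, CCT8 and HSF2. Genes without a match were thus called in both directions after double knockdown, HSPA4 and AHSA1 as higher and HSPA2 and HSF2 as lower. A match is a description of these letters and not evidence that a factor was bound.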

How the data were processed

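RNA-seq of 12 libraries of sorted MIA PaCa-2 cells, 3 for each of 4 groups read from the sample titles, was used as 1 table of estimated counts per gene, deposited by the authors as whole numbers without scaling. Per the submitters' processing notes, kallisto 0.42.1, CASAVA 1.4 and the build hg19 were used, with no roles given. Neither the transcript set, the summing to genes nor the use of strand is stated in these sources. Kallisto splits shared reads by likelihood, so near-identical genes are uncertain singly.

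Tests used edgeR 4.0.16 under R 4.3.3 (filterByExpr with minimum count 10, TMM scaling, robust quasi-likelihood fit, 1 model with 4 group means and 8 residual degrees of freedom). P-values were two-sided and Benjamini-Hochberg adjusted over the 15021 tested genes, with a threshold of 0.05. Standard errors were the log2 change divided by the square root of F. CPM are per 1e6 counts of the TMM-scaled library, and levels per kb use the longest GENCODE 29 transcript. The smallest two-sided p of an exact permutation test of 3 against 3 is 0.1, so single genes rest on the model. Library totals, in units of 1e6 counts, ran from 10.9 to 56.1. Within groups, pairs of libraries had chi-square values of 3.60 to 35.9 per degree of freedom, so none was the same library deposited again. Same-numbered libraries deviated together (every correlation above 0.1) for the Msi2 knockdown and control alone, of 6 pairs of groups, as read from the data and not from the labels. Scripts were tested on simulated data.

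The library trend is the first principal component of deviations from group means over genes above 3 log2 CPM, members left out, onto which each library was projected. Members, lists and alternatives were chosen with earlier results of these data known. Members were named with values in every library when they passed the threshold with an absolute log2 change of at least 0.5 and no overlap with control in at least 1 of the 3 comparisons. HSPA1A, HSPA1B, HSF1 and HSF2 were always given, and values of CHORDC1, HSPA8 and HSPD1 in every library were added after their values were seen. Alternatives included DESeq2 1.42.0.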

Additional observations from a re-analysis of the deposited data

Results flagged for a closer look

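For 33 members the effect of the double knockdown differed from the sum of the effects of the single knockdowns, by the interaction term of the edgeR model at an adjusted p below 0.05. Each value is the log2 change of the double knockdown against control minus those of the Msi1 and Msi2 knockdowns. In the HSP70 class the departures were HSPA1A 1.20, HSPA1B 1.10, HSPA2 1.17, HSPA8 0.68 and HSPA14 0.26. Those of the other HSP70 machinery were HSPH1 0.52 for HSP110, DNAJA1 0.69, DNAJA2 0.37, DNAJB1 0.56, DNAJB4 0.40 and DNAJB6 0.44 for the J-domain proteins, and BAG2 0.35, BAG3 0.49, ST13 0.53, STUB1 0.59 and STIP1 0.55 for the co-chaperones. In the HSP90 class they were HSP90AA1 0.51, HSP90AB1 0.34, AHSA1 0.34, CHORDC1 0.49, FKBP4 0.54 and PTGES3 0.74. The mitochondrial members gave HSPA9 0.30 and HSPE1 0.65, the TRiC subunits TCP1 0.45, CCT2 0.32, CCT3 0.34, CCT4 0.35, CCT5 0.43 and CCT7 0.26, and the small heat shock proteins HSPB1 0.64 and HSPB11 0.50. SERPINH1 alone of the 33 was negative, at -0.40. Standard errors ran from 0.076 for CHORDC1 to 0.17 for HSPA2. Of all genes, 21.3% had a positive and 19.1% a negative departure. In the fit with the library trend 5 of the 41 members tested were positive and 0 negative, where 1.22% of all genes were positive and 2.74% negative. The departure of SERPINH1 was then -0.073 and not past the threshold. The part of the trend in these values was not tested further.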

How the results depend on the processing

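Each call of a member against control (62 in all) was repeated under 21 alternatives, or 20 for the 3 calls of HSPA1B, which has no entry of its own once summed with HSPA1A. These were DESeq2 size factors, the DESeq2 Wald test, no low-count filter, a stricter filter of 5 CPM in 3 libraries, only the compared groups in the model, thinning to the smallest library, a replicate block, the library trend as a covariate, HSPA1A and HSPA1B summed, and each of the 12 libraries left out. Of the 62 calls, 35 were kept in every alternative run, 40 in every removal of 1 library and 46 with the trend as a covariate. With the trend, 2 turned sign, BAG3 (-0.026) and DNAJA1 (-0.050) after double knockdown. The cause was not tested.

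With the trend, higher calls became 7 (Msi1 knockdown), 13 (Msi2 knockdown) and 15 (double knockdown) against control, 2 in the double against the Msi1 knockdown, 6 in the double against the Msi2 knockdown, and 5 for the departure from additivity. Lower calls then became 8 in the Msi2 against the Msi1 knockdown, 0 in the double against the Msi1 knockdown, 2 in the double against the Msi2 knockdown and 0 for the departure. After Msi1 knockdown no filter left 1 higher call. After Msi2 knockdown DESeq2 size factors, no filter, the compared groups alone and thinning each left 2. In the Msi2 against the Msi1 knockdown the compared groups alone left 8 higher calls and thinning 9, and thinning left 0 lower calls in the double against the Msi2 knockdown. Other settings stayed within 1.5 times the reported counts.

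Over removals of 1 library, higher calls ran from 1 to 2 (Msi1 knockdown), 1 to 8 (Msi2 knockdown), 19 to 28 (double knockdown), 7 to 21 (Msi2 against Msi1 knockdown), 33 to 38 (double against Msi1 knockdown), 19 to 31 (double against Msi2 knockdown) and 23 to 34 (departure). Lower calls ran from 12 to 24 (Msi1 knockdown), 6 to 10 (Msi2 knockdown) and 2 to 6 (double knockdown), and the others stayed at 2, 1, 1 and 1.

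Same-numbered libraries met the pairing criterion, every correlation above 0.1, in 1 of 6 pairs of groups, the Msi2 knockdown and control. The labels tie no number to a shared culture. Deviations of same-numbered libraries from the group means correlated from -0.537 to 0.695, with 10 of 18 correlations above 0.1, and 8 of 18 times a library correlated best with its own number. With the replicate number as a block, higher and lower calls were 2 and 21 after Msi1 knockdown, 5 and 9 after Msi2 knockdown and 26 and 5 after double knockdown. The block ended no call, and for the Msi2 knockdown against control it added STUB1 and CCT2.

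Depth, in units of 1e6 counts, ranged from 10.9 in control replicate 3 to 56.1. HSPB8, at 0 to 5 counts, could not be compared at this depth, and 3 libraries a group leave changes near the threshold dependent on single libraries.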
